A study of Caenorhabditis elegans with 8 samples.

Results

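The 10 genes described here act in or beside the pathway that writes, reads and places methylation of histone H3 at lysine 9, and they were followed across 4 genotypes: the methyltransferase genes met-2, set-25 and set-32, the cofactor gene lin-65, the reader genes cec-4, cec-3, hpl-1, hpl-2 and lin-61, and the chromodomain gene mrg-1. They were chosen by WormBase symbol, and all 10 were found among the 20392 genes of the count table and among the 14355 that passed the filter on low counts. The study asked how loss of the heterochromatin anchor CEC-4 alters the larvae of a strain with a mutant lamin, and it sequenced total RNA of whole L1 larvae. In every group, embryos were left to hatch over 16 h without food, larvae were given food for 2.5 h, and animals without a green balancer were sorted. Wild-type was strain N2. The cec-4 mutant was strain GW828, which carries the deletion allele ok3124 on chromosome IV. Lamin Y59C was strain GW653, with an integrated array that drives GFP-tagged lmn-1 Y59C from the baf-1 promoter and holds an unc-119(+) marker, in an unc-119(ed-3) background. The double mutant was strain GW1468, which combines the array, the unc-119 allele and cec-4 ok3124. Each group had 2 libraries, a and b. The labels do not say whether they came from separate cultures, so p-values measure only the spread between these libraries, which may be technical. The array, its marker, the GFP tag and the unc-119 allele cannot be told apart from the Y59C change itself, since an array with unmutated GFP-lamin was not analysed here.

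In Caenorhabditis elegans, MET-2, a relative of mammalian SETDB1, adds the first methyl groups to lysine 9 of histone H3, and SET-25 adds the further group that marks silent repeats and genes. Chromodomain proteins and proteins with MBT repeats then bind the mark. CEC-4 sits at the inner nuclear membrane and holds methylated chromatin there, while the HP1 proteins HPL-1 and HPL-2 and the MBT protein LIN-61 act in repression without being that anchor. MRG-1, a relative of mammalian MRG15, binds chromatin of active genes and is known to keep heterochromatin at the periphery of intestinal nuclei indirectly.

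Library totals ranged from 30924676 to 57069281 counts, and wild-type b was the deepest. The marker unc-119 rose with the array by 0.88 ± 0.04 on the log2 scale (± standard error, 4 libraries with the array against 4 without, edgeR quasi-likelihood test, adjusted p by Benjamini-Hochberg = 1.14e-05). The lamin gene lmn-1, whose counts do not separate the array from the endogenous gene, had 0.18 ± 0.05 in that comparison (adjusted p = 0.0812). Its adjusted p was 0.0182 with DESeq2 and 0.0348 without cec-4 mutant b, so this call depended on the tool and on that library. Of the marker lists, summed levels were 9741 to 10679 CPM, the unit that scales counts to a common library size, for 7 body wall muscle genes, 2944 to 3459 for 5 intestinal genes, 716 to 758 for 7 neuronal genes, 2564 to 2913 for 5 pharyngeal genes and 192 to 225 for 6 hypodermal genes. Those of 8 germline genes were 147 to 176 CPM, and those of 8 oocyte, yolk and adult genes and of 6 embryonic genes were at most 9.84 and 1.73 CPM. The yolk gene vit-5 and the embryonic genes end-1, hlh-27 and tbx-37 were under 0.1 CPM in every library. The hypodermal sum was 192 and 200.4 CPM in the double mutant and 208 to 225 CPM in the other 6 libraries, and the embryonic sum was 1.26 to 1.34 CPM there and 1.41 to 1.73 CPM elsewhere, so the double mutant stood lowest on both lists. These lists were singled out after their values were seen, and the embryonic sum is near the floor. Lamin Y59C stood lowest on the pharyngeal list (2564 to 2659 CPM) and the neuronal list (716 to 722 CPM). Over the 8 comparisons, 0.0209% to 2.21% of all genes tested were called. On the hypodermal list 3 calls fell, all of the cuticle collagen gene rol-6, and on the muscle list 1, of the troponin I gene unc-27 (both named after their values were seen). The part of these differences in the values of the 10 genes was not tested. The RNA came from whole animals, so fewer cells of a type and less RNA per cell cannot be told apart.

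The member altered by the genotypes, cec-4, was the one whose counts fell. The gene (WBGene00017990, chromosome IV, 7575718 to 7577326, plus strand, WBcel235) has 5 exon blocks of 1119 bases in all. It was at 14.5 and 12.7 CPM in wild-type larvae and at 12.32 and 12.31 CPM in lamin Y59C. In cec-4 mutants it was at 5.04 and 4.76 CPM, and in the double mutant at 4.35 and 4.61 CPM. All 4 libraries with the ok3124 allele were far below all 4 without it, and the groups did not overlap. Against wild-type, cec-4 fell by 1.47 ± 0.11 on the log2 scale in cec-4 mutants (adjusted p = 0.000610), which left 36.2% of the wild-type level (95% interval 30.6% to 42.7%). Against lamin Y59C, it fell by 1.46 ± 0.11 in the double mutant (adjusted p = 0.000371), which left 36.4% (30.6% to 43.2%). These contrasts share no library, and their difference, the interaction, was 0.01 ± 0.16 (adjusted p = 0.990; interval -0.34 to 0.36). Over all 8 libraries, the scaled counts of cec-4 with ok3124 were 36.3% of those without it (32.2% to 40.9%; log2 change -1.46 ± 0.08, adjusted p = 2.64e-05). Sequence removed by a deletion gives no reads, so these percentages are of counts and do not measure how many transcripts were left. In the double mutant against wild-type, cec-4 fell by 1.595 ± 0.110 (adjusted p = 0.000132).

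The lamin array on its own went with a smaller difference in cec-4 that did not pass the test. Both lamin Y59C libraries were below both wild-type libraries, and both double mutant libraries were below both cec-4 mutant libraries. The share of all genes with such a separation is not given for these comparisons, so the separation is not read as a result. In cec-4 mutants against wild-type that share was 34.3%. There 4.88% of all genes had an unadjusted p under 0.05, fewer than in lamin Y59C against wild-type (14.6%) or the double mutant against cec-4 mutants (13.2%). The change of cec-4 was -0.14 ± 0.10 against wild-type (adjusted p = 0.581), -0.13 ± 0.12 between the double mutant and cec-4 mutants (adjusted p = 0.706) and -0.13 ± 0.08 on average (adjusted p = 0.430; interval -0.31 to 0.04). The first value rested on wild-type a: it was -0.037 without that library and -0.24 without wild-type b.

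The counts that remained with ok3124, 142 to 182 per library against 390 to 713 without it, are totals over the gene and hold no position within it. Which exon bases the allele removes is not given in the sources used here. On the opposite strand, the protein-coding gene F32E10.5 overlaps 141 bases of cec-4 exons, which are 12.6% of their length. The strand setting of the counting is unknown here, so reads of that stretch cannot be assigned to one gene. F32E10.5 was at 8.96 to 10.3 CPM in all libraries, and its change with loss of cec-4 was -0.08 ± 0.07 (adjusted p = 0.755). Its libraries with and without the allele overlapped.

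**Figure D1:**
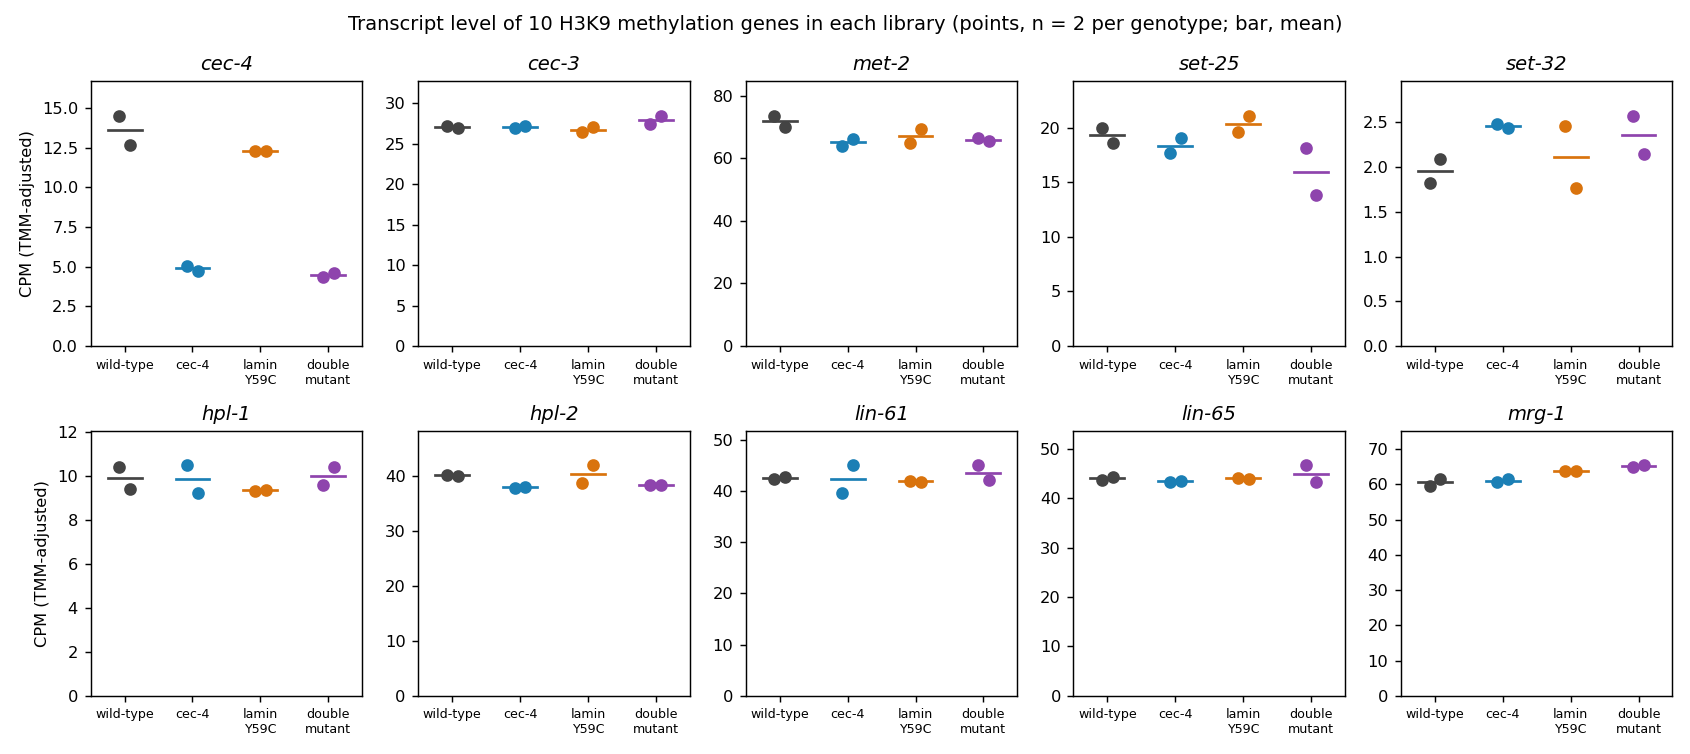
Level of each of the 10 genes in CPM (vertical axes, from 0) in the 2 libraries of each genotype (points, with the mean as a bar). The cec-4 panel separates libraries with the ok3124 allele (4.35 to 5.04 CPM) from those without it (12.31 to 14.5 CPM). In the other panels the genotypes lie close together, apart from a low double mutant library of set-25 (13.8 CPM) and the scatter of set-32 (1.77 to 2.57 CPM).

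The other 9 genes were not called in any comparison at an adjusted p under 0.05. Against wild-type, 0 of 10 members were called in lamin Y59C, where 0.509% of all genes tested were called. In cec-4 mutants 1 of 10 was called (all genes, 0.0209%), and in the double mutant 1 of 10 (all genes, 2.21%). Between the double mutant and lamin Y59C 1 of 10 was called (0.676%), between the double mutant and cec-4 mutants 0 of 10 (0.773%), and for the interaction 0 of 10 (0.0348%). Averaged over both backgrounds, loss of cec-4 gave 1 of 10 (0.118%) and the lamin array 0 of 10 (1.96%). Each of these single calls was cec-4, in strains that carry its deletion, so those calls were set by the choice of strains. The other 9 genes had 0 calls in each comparison, and DESeq2 made the same number of calls among the members in every comparison. Of the 72 values of the other 9 genes, 5 had an unadjusted p under 0.05 (over all genes and comparisons, 12.5% of values did), and the lowest adjusted p was 0.228. All 72 log2 changes were between -0.35 (set-25, double mutant against lamin Y59C) and 0.31 (set-32, cec-4 mutant against wild-type). All 72 of their 95% intervals lay within 1 log2 unit of 0, so a change of 2-fold was outside each, and 63 lay within 0.5. Changes smaller than these intervals were not detectable with 2 libraries a group. The 9 genes had a median log2 change of 0.02 with loss of cec-4 and of 0.01 with the array. Over all genes tested the medians were 0.0034 and 0.00041.

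**Figure D2:**
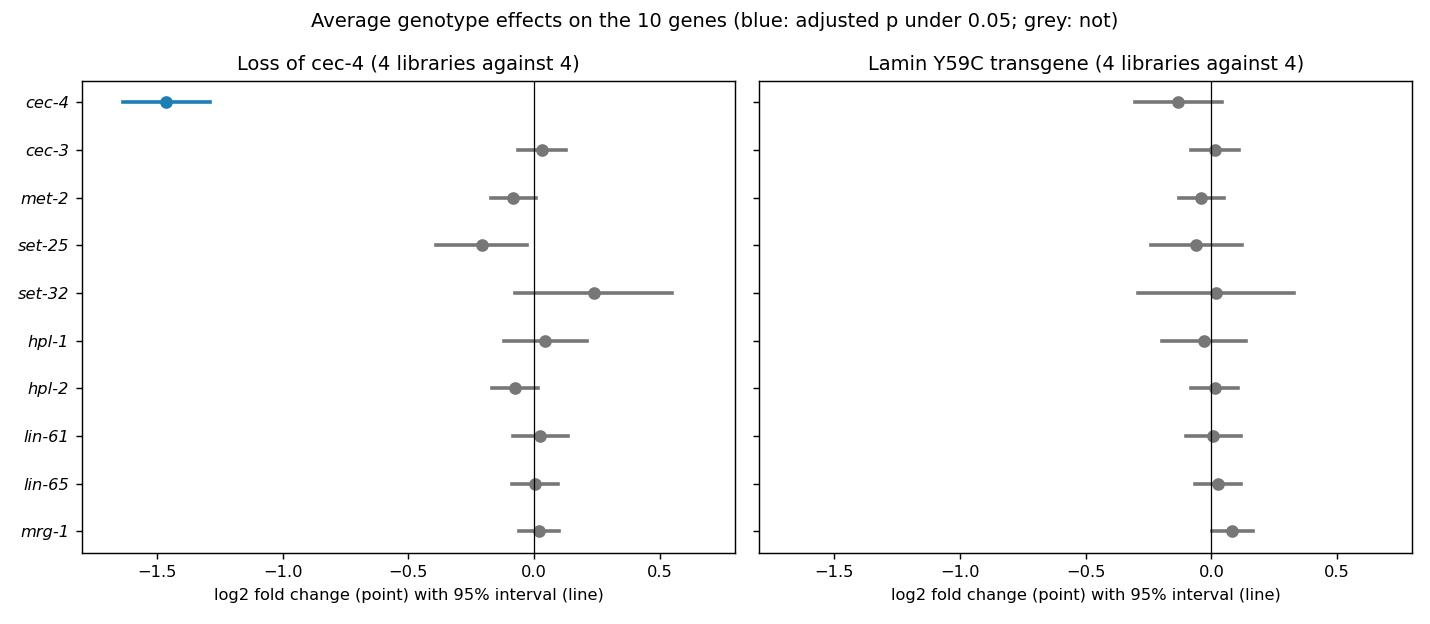
Log2 fold change (horizontal axes, points) with its 95% interval (lines) for each of the 10 genes, for loss of cec-4 on the left and for the lamin Y59C array on the right, each from 4 libraries against 4. With loss of cec-4, that gene stands at -1.46, and the other 9 lie between -0.21 and 0.24, while with the array all 10 lie between -0.13 and 0.08.

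Among the methyltransferases, set-25, whose product adds the final methyl group, spread slightly more than set-32 on log2(CPM + 0.5), with standard deviations of 0.179 and 0.170. The added 0.5 narrows the spread of set-32 most, since its CPM were the lowest, so the order of the pair is not settled. The gene set-25 (WBGene00012802, chromosome III, 13283824 to 13293090, minus strand) was at 19.99 and 18.6 CPM in wild-type larvae and at 17.7 and 19.05 CPM in cec-4 mutants. It was at 19.6 and 21.1 CPM in lamin Y59C and at 18.1 and 13.8 CPM in the double mutant. Both double mutant libraries were below both lamin Y59C libraries. In that comparison 6 of the 9 genes beside cec-4 had libraries that did not overlap, and the share of all genes is not given. Double mutant a lay within the range of the cec-4 mutant libraries, and b lay below every other library. Between the double mutant and lamin Y59C the log2 change was -0.35 ± 0.12 (adjusted p = 0.228; interval -0.61 to -0.09), against wild-type it was -0.27 ± 0.12 (adjusted p = 0.265), and the interaction was -0.28 ± 0.16 (adjusted p = 0.592). Without double mutant b the first of these values was -0.17, against wild-type it was -0.09, and the interaction was -0.10. Without double mutant a they were -0.56, -0.48 and -0.49, so both libraries weighed on the size. Averaged over both backgrounds, the value with loss of cec-4 was -0.21 ± 0.08 (adjusted p = 0.449), -0.12 without double mutant b and -0.31 without a, and with the array it was -0.06 ± 0.08 (adjusted p = 0.767). The neuronal syntaxin gene unc-64 overlaps 64 exon bases of set-25 on the opposite strand, and its level was 90.1 and 94.6 CPM in wild-type larvae and 84.1 to 85.8 CPM in the other 6 libraries. Against wild-type it had -0.13 ± 0.05 in lamin Y59C (adjusted p = 0.304), -0.11 ± 0.05 in cec-4 mutants (adjusted p = 0.897) and -0.12 ± 0.05 in the double mutant (adjusted p = 0.274). With loss of cec-4 on average it had -0.05 ± 0.04 (adjusted p = 0.710).

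The gene met-2, whose product carries out the earlier methylation steps (WBGene00019883, chromosome III, 8375300 to 8380848, plus strand), was highest in wild-type. It was at 73.7 and 70.03 CPM there, at 64.1 and 66.2 CPM in cec-4 mutants, at 64.8 and 69.3 CPM in lamin Y59C and at 66.4 and 65.5 CPM in the double mutant. Both wild-type libraries were above the other 6, by a margin within the spread of the lamin Y59C pair. The log2 change against wild-type was -0.14 ± 0.06 in cec-4 mutants (adjusted p = 0.897) and -0.12 ± 0.06 in the double mutant (adjusted p = 0.305), and neither passed the test. In cec-4 mutants against wild-type, 34.3% of all genes tested had libraries that did not overlap, and 4 of the 9 genes beside cec-4 did. On average met-2 had -0.08 ± 0.04 with loss of cec-4 (adjusted p = 0.569; interval -0.17 to 0.01) and -0.04 ± 0.04 with the array (adjusted p = 0.671).

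The gene set-32, a SET-domain gene known for small RNA-directed silencing in the germline, was the least abundant member, with 56 to 118 counts per library. It was at 1.82 and 2.09 CPM in wild-type, 2.49 and 2.43 CPM in cec-4 mutants, 2.46 and 1.77 CPM in lamin Y59C, and 2.57 and 2.14 CPM in the double mutant. The cec-4 mutant libraries were above both wild-type libraries, and the lamin Y59C pair spanned nearly the whole range. Its log2 change was 0.31 ± 0.19 in cec-4 mutants (adjusted p = 0.897; interval -0.12 to 0.74), 0.24 ± 0.14 on average with loss of cec-4 (adjusted p = 0.651) and 0.02 ± 0.14 with the array (adjusted p = 0.967). The average with loss of cec-4 was 0.13 without lamin Y59C b and 0.37 without lamin Y59C a. These intervals were the widest of the 10 genes. The gene lin-65, which encodes a cofactor that brings MET-2 into the nucleus, was far steadier, at 43.3 to 46.7 CPM in all libraries. Its value with loss of cec-4 was 0.0044 ± 0.0407 (adjusted p = 0.990), and it turned to -0.00519 when libraries were scaled by their totals alone. With the array it was 0.03 ± 0.04 (adjusted p = 0.791).

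Among the readers, the HP1 genes hpl-1 and hpl-2 were not called. The gene hpl-2 (WBGene00001996, chromosome III) was at 40.2 and 40.04 CPM in wild-type, 37.90 and 37.96 CPM in cec-4 mutants, 38.7 and 41.97 CPM in lamin Y59C and 38.46 and 38.43 CPM in the double mutant. All 4 libraries with ok3124 lay below all 4 without it, by a gap of less than the spread of the lamin Y59C pair. It was the single gene beside cec-4 among the 10 for which this held, against 2.95% of all genes tested. The log2 change was -0.08 ± 0.04 (adjusted p = 0.619; interval -0.17 to 0.02), and with the array it was 0.01 ± 0.04 (adjusted p = 0.910). The gene hpl-1 (WBGene00001995, chromosome X) was at 9.24 to 10.5 CPM, and the cec-4 mutant libraries alone spanned that whole range. It had 0.05 ± 0.07 with loss of cec-4 (adjusted p = 0.901) and -0.03 ± 0.07 with the array (adjusted p = 0.889).

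The chromodomain gene cec-3 (WBGene00011636, chromosome II), whose product binds methylated lysine 9, had the smallest spread of the 10 on the log2 scale. It was at 27.1 and 26.9 CPM in wild-type, 26.9 and 27.2 CPM in cec-4 mutants, 26.4 and 27.01 CPM in lamin Y59C and 27.4 and 28.4 CPM in the double mutant. Its highest library was 1.08 times its lowest, as was that of lin-65. It had 0.03 ± 0.04 with loss of cec-4 (adjusted p = 0.874; interval -0.06 to 0.13) and 0.01 ± 0.04 with the array (adjusted p = 0.912). The MBT-repeat gene lin-61 was at 39.7 to 45.05 CPM, and both ends of that range were cec-4 mutant libraries. It had 0.02 ± 0.05 with loss of cec-4 (adjusted p = 0.919) and 0.01 ± 0.05 with the array (adjusted p = 0.961).

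The gene mrg-1 (WBGene00003406, chromosome III, 12871029 to 12874656, minus strand) was at 59.6 and 61.6 CPM in wild-type larvae and 60.6 and 61.5 CPM in cec-4 mutants. It was at 63.88 and 63.86 CPM in lamin Y59C and 64.8 and 65.4 CPM in the double mutant. All 4 libraries with the array were above all 4 without it, which was so for 8.2% of all genes tested in either direction and for mrg-1 alone among the 10 members. The log2 difference was 0.08 ± 0.04 (interval 0.0036 to 0.16), which is 106% of the level without the array, and it did not pass the test (adjusted p = 0.268, unadjusted p = 0.0422). With loss of cec-4 mrg-1 had 0.02 ± 0.04 (adjusted p = 0.910). The summed level of the 8 germline genes was 163 to 171 CPM in libraries with the array and 147 to 176 CPM in those without. These ranges overlapped, and a part of germline RNA in the mrg-1 values was not tested.

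The levels of the genes were ordered on a scale per length, as CPM per kilobase of exon, where values of different genes can be set side by side. In wild-type the order was mrg-1 (40.3 ± 0.95, SD, n = 2), hpl-2 (31.2 ± 0.11), lin-61 (21.4 ± 0.11), cec-3 (19.05 ± 0.10), met-2 (17.4 ± 0.63), lin-65 (16.8 ± 0.18), hpl-1 (12.4 ± 0.88), cec-4 (12.1 ± 1.19), set-25 (6.90 ± 0.34) and set-32 (1.18 ± 0.12). The wild-type libraries of met-2 and lin-65 overlapped, as did those of hpl-1 and cec-4, and all other neighbours were apart. Across genotypes the order was nearly fixed. With ok3124, cec-4 dropped from the eighth to the ninth place in all 4 libraries, below set-25, with 4.38 CPM per kilobase in cec-4 mutants against 6.55 for set-25. The full exon length of cec-4 was used there too, although ok3124 is a deletion. Its values and place with ok3124 therefore do not measure its level against other genes. The pair lin-65 and met-2 was the other one that changed places: met-2 was higher in wild-type a alone and lin-65 in the other 7 libraries. The ratio of the HP1 genes, hpl-2 over hpl-1 per kilobase, was 2.25 to 2.79 over all libraries. Its size depends on the length used. With the longest transcript as length, hpl-2 was at 38.0 in wild-type, near mrg-1 at 40.4, and hpl-1 stayed at 12.4. For the methyltransferases, met-2 over set-25 was 2.23 to 2.55 in 7 libraries and 3.21 in double mutant b. The ratio of the chromodomain genes cec-3 over cec-4 was 1.47 to 1.73 without ok3124 and 4.21 to 4.96 with it, where the same limit of length holds.

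**Figure D3:**
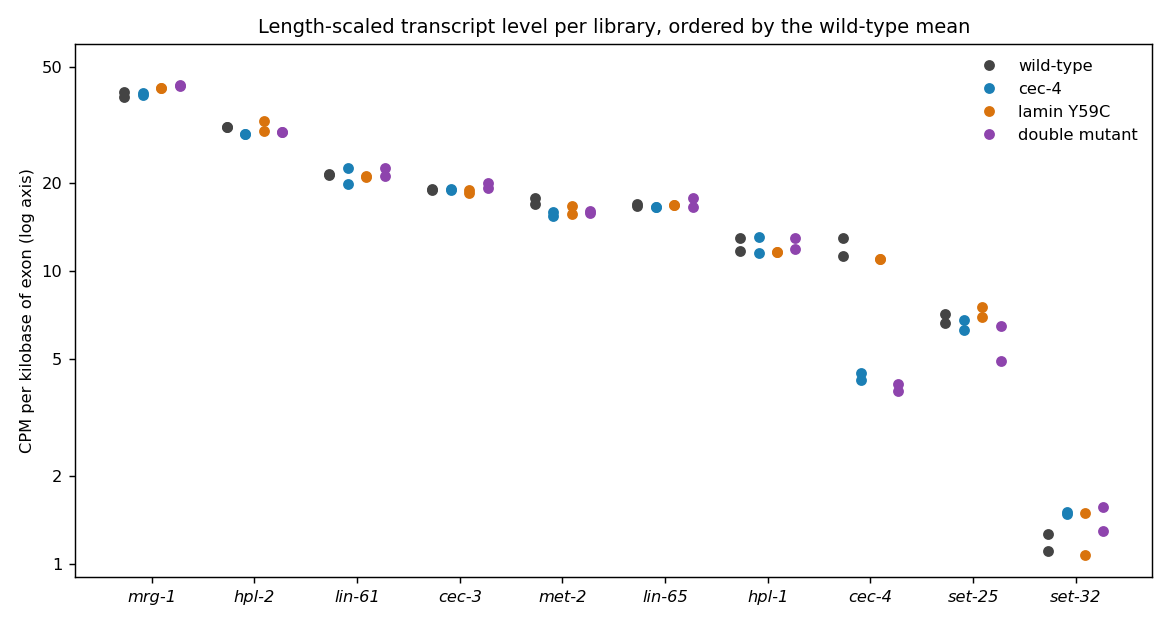
CPM per kilobase of exon (vertical log axis) of the 10 genes in the 8 libraries (points, coloured by genotype), ordered from left to right by the wild-type mean. Levels run from about 40.3 for mrg-1 to 1.18 for set-32 in wild-type, and cec-4 is the gene whose points split into 2 clusters.

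The spread over all 8 libraries differed between the members. Libraries with and without ok3124 are both among the 8, so a wide spread of cec-4 was set by the choice of strains. On log2(CPM + 0.5), the standard deviation was 0.74 for cec-4, and 99.7% of the 3332 tested genes within 2-fold of its mean level varied less. It was 0.18 for set-25 (88.1% of 3890 such genes varied less) and 0.17 for set-32 (48.9% of 2253). For met-2 it was 0.07, with 45.9% of genes of like level varying less. The other genes were in the steadier part of their level class: lin-61 at 28.6%, mrg-1 at 18.9%, hpl-1 at 17.7%, hpl-2 at 16.3%, lin-65 at 3.62% and cec-3 at 1.07%. Of the 10 genes, met-2, set-25, hpl-2 and mrg-1 are on chromosome III, and lin-61, lin-65 and set-32 are on chromosome I. Exon lengths ranged from 802 bases for hpl-1 to 4131 for met-2. Exon bases of set-25 also hold a piRNA gene of 21 bases on the opposite strand. Beside cec-4 and set-25, the members share no exon base with another annotated gene.

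The genes whose pattern over the 8 libraries was most like that of cec-4 were sought by the root mean square difference of log2 levels centred on each gene's mean, among 9692 genes of at least 5 CPM. They were C42D4.3 (0.35), Y47D7A.13 (0.42), F55G11.4 (0.45), T06C12.14 (0.47) and the collagen gene col-65 (0.47). For scale, a gene with no variation at all would be 0.69 away from cec-4. C42D4.3 was at 18.02 and 11.5 CPM in wild-type, 7.78 and 8.35 CPM in cec-4 mutants, 9.49 and 11.6 CPM in lamin Y59C and 4.63 and 5.38 CPM in the double mutant. Its libraries with and without ok3124 did not overlap, but the cec-4 mutant libraries were nearer to lamin Y59C a than to the double mutant. These genes were chosen for this pattern, so their levels are a description, and their values in the fit over all genes are not used as support.

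Other genes of the chromatin pathways were read from 6 lists of 61 genes, of which 57 were tested. None was called in either direction in any of the 8 comparisons, by edgeR or by DESeq2, and the lowest adjusted p was 0.169. Over all genes tested, edgeR called 0.0209% to 2.21% per comparison. Lists this short would hold few or no calls at that rate. Of the 456 values of the 57 genes, 3.51% had an unadjusted p under 0.05, against 12.5% over all genes. Among 13 other chromodomain genes, cec-7 had the smallest p. It was at 6.65 and 7.03 CPM in wild-type larvae and at 8.52 and 8.64 CPM in the double mutant (0.32 ± 0.11, adjusted p = 0.169), and cec-1 followed, with -0.16 ± 0.06 in lamin Y59C against wild-type (adjusted p = 0.272). Among 6 tested SET-domain genes related to set-25, set-11 had 0.24 ± 0.10 with the array on average (adjusted p = 0.262) and set-20 had an interaction of -0.52 ± 0.23 (adjusted p = 0.492). The MET-2 cofactor gene arle-14 was at 8.63 and 8.94 CPM in wild-type larvae and at 9.81 and 10.6 CPM in cec-4 mutants (0.22 ± 0.09, adjusted p = 0.897). Its listed companion lin-13, a zinc-finger gene, had -0.08 ± 0.05 between the double mutant and cec-4 mutants (adjusted p = 0.555).

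Genes tied to the removal or addition of histone marks, and synMuv B and DREAM genes, were read in the same way. The same share of all genes, 0.0209% to 2.21% called per comparison, stands beside their counts of calls. Of 11 tested histone demethylase genes, 0 were called. The demethylase gene jmjd-3.2 had -0.56 ± 0.21 in lamin Y59C against wild-type (adjusted p = 0.267), from 7.91 and 7.24 CPM to 4.10 and 6.15 CPM, and amx-1 had -0.25 ± 0.10 (adjusted p = 0.298). Both sizes turned on lamin Y59C a: without it they were -0.29 and -0.12, and without lamin Y59C b they were -0.88 and -0.40. Of 13 genes on the list of Polycomb and other histone methyltransferases, which also holds partner subunits that are not enzymes, 0 were called. In lamin Y59C against wild-type set-17 had -0.24 ± 0.08 (adjusted p = 0.204), while set-30 had -0.10 ± 0.04 with the array on average (adjusted p = 0.237). Of 11 synMuv B and DREAM genes, which act in repression with hpl-2 and lin-61, 0 were called. The histone deacetylase gene hda-1 had -0.13 ± 0.06 in lamin Y59C against wild-type (adjusted p = 0.365) and mep-1 had 0.10 ± 0.05 between the double mutant and lamin Y59C (adjusted p = 0.450). With loss of cec-4 on average, list medians were between -0.0079 and 0.09, and with the array between -0.04 and 0.02.

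**Figure D4:**
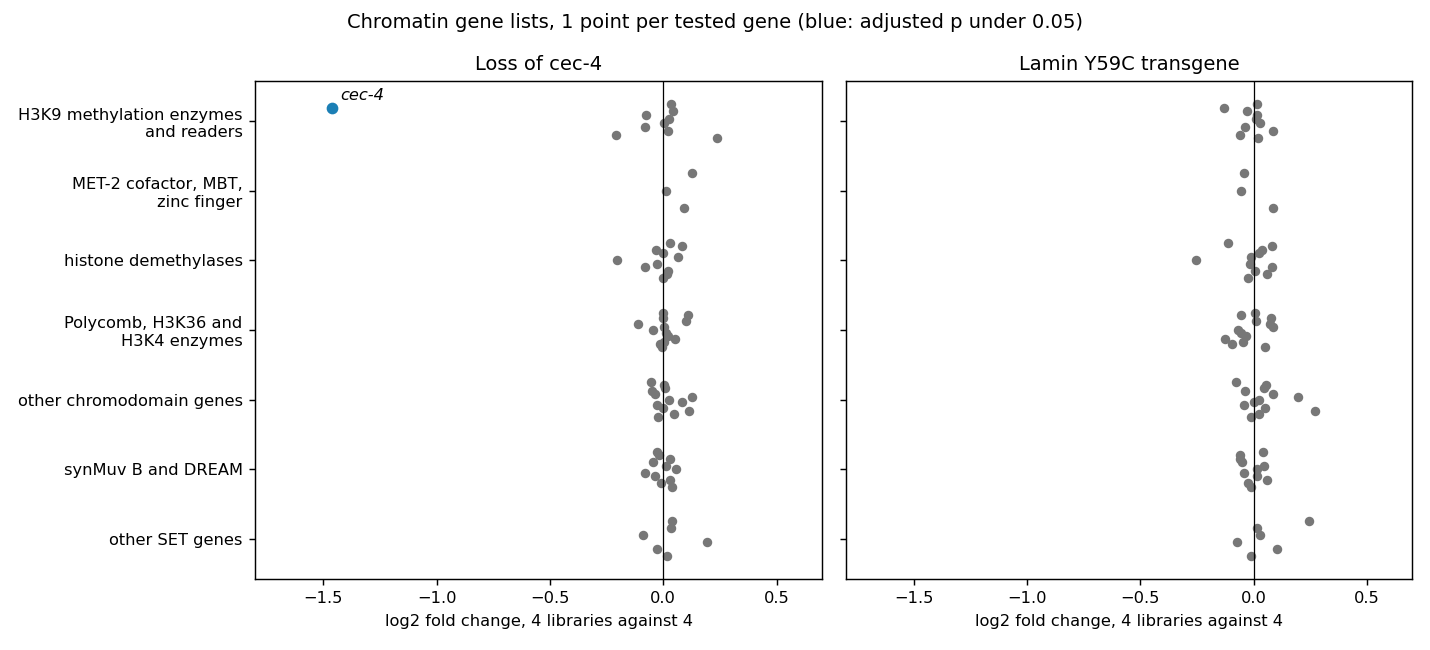
Log2 fold change (horizontal axes) with loss of cec-4 on the left and with the lamin Y59C array on the right, 4 libraries against 4, with 1 point per tested gene and 1 row per list (10 members in the top row, then 57 other chromatin genes). The single point past the test is cec-4 at -1.46 on the left, and the other points lie between -0.26 and 0.27.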

How the data were processed

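Total RNA of L1 larvae was sequenced as 50 bp single-end reads, 2 libraries per genotype. Per the submitters' processing notes, Bowtie, the build ce10 and edgeR 3.24.0 were used by the authors. How reads were counted, with which annotation and strand setting, is not given in the sources used here. The deposited table holds raw counts per WormBase gene ID, and the deposited log2 table was not used. Symbols matched 19182 of 20392 IDs, and positions and exon lengths (19870 IDs) came from Ensembl release 115 on WBcel235, matched by ID only. With edgeR 4.0.16 (R 4.3.3), filterByExpr kept 14355 genes (the rest held 0.0278% of counts), TMM factors were applied, and 1 quasi-likelihood model with 4 group means was fitted to all 8 libraries (dispersion 0.00408 in common, degrees of freedom 4 residual and 6.03 prior). Tests were two-sided F-tests, adjusted by Benjamini-Hochberg over all genes within each of 8 comparisons, and the 8 share libraries. Standard errors were worked back from the F statistic. CPM are TMM-adjusted. DESeq2 1.42.0 was an alternative. The fit was tested on simulated data. Libraries of a group differed by more than sampling noise (chi-square per degree of freedom 6.34 to 11.9). Members and lists were chosen with earlier results of these data known. Genes named outside the members are, per chromatin list, the 2 with the smallest unadjusted p, plus the 5 nearest to cec-4 and the genotype genes. From the marker lists, rol-6 and unc-27 were named because they were called. The genes vit-5, end-1, hlh-27 and tbx-37 were named because they were under 0.1 CPM in every library. F32E10.5 and unc-64 were added because they overlap members.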

Additional observations from a re-analysis of the deposited data

How the results depend on the processing

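The members' calls held in all 14 alternatives: of 1090 recomputed values of the 10 genes, 0 moved past the threshold, and 1 (set-32, double mutant against wild-type) had no adjusted p with DESeq2. The 4 called values of cec-4 ranged from -1.70 to -1.37 (highest adjusted p 0.0133), and the lowest adjusted p of the other 9 genes was 0.119. No gene of the 6 other lists was called under any alternative. Signs changed for 72 of the 1090 values, 21 of them with scaling by library totals and 48 with a library left out, and 0 were called values. The lettered replicate block (letters a and b are not stated to be a batch, and the correlation of their differences between groups was -0.484 to 0.45) changed no member's call. With that replicate block, the genes called over the whole table were 27 for lamin Y59C against wild-type (73 without), 146 for the double mutant against wild-type (317), 28 against lamin Y59C (97), 58 against the cec-4 mutant (111), 10 for average loss of cec-4 (17) and 169 for the average array effect (281). DESeq2 called 234 genes for lamin Y59C against wild-type, 240 between both lamin strains, 250 between both strains with ok3124, 11 for the cec-4 mutant against wild-type, 75 for the interaction (5) and 84 for average loss of cec-4. Without the count filter, 159, 182, 212, 34 and 42 were called in these comparisons apart from the cec-4 mutant against wild-type. With only the groups compared in the fit, lamin Y59C against wild-type gave 124 and the double mutant against lamin Y59C 156. The cause of these shifts was not tested. Leaving out 1 library at a time, calls ranged from 8 to 178 for lamin Y59C, 3 to 9 for the cec-4 mutant and 37 to 440 for the double mutant against wild-type. They ranged from 6 to 166 between both lamin strains, from 11 to 140 between both strains with ok3124, from 1 to 35 for the interaction, from 6 to 42 for average loss of cec-4 and from 99 to 348 for the average array effect.

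Among the uncalled log2 values printed above, those that changed sign with library totals were the interaction of cec-4 (-0.0746) and lin-65 with loss of cec-4 (-0.00519). Over the libraries left out, the interaction of cec-4 was -0.0923 to 0.112. With loss of cec-4, hpl-1 was -0.000747 to 0.0858, lin-61 -0.0296 to 0.0680 and lin-65 -0.0233 to 0.0282. With the array, set-25 was -0.165 to 0.0318, set-32 -0.109 to 0.128, hpl-1 -0.0732 to 0.0172, hpl-2 -0.0157 to 0.0421, lin-61 -0.0356 to 0.0582 and lin-65 -7.71e-05 to 0.0553. With a library left out, further values moved by over 1.5 times without a change of sign. With loss of cec-4 these included hpl-2 (-0.104 to -0.0461), cec-3 (0.0153 to 0.0459) and mrg-1 (0.00336 to 0.0317). With the array they included met-2 (-0.0645 to -0.0162), cec-3 (0.000955 to 0.0277) and cec-4 (-0.183 to -0.0834). The values of set-11 (0.156 to 0.319), set-20 (-0.747 to -0.333) and cec-1 (-0.215 to -0.0949) moved by over 1.5 times too. Exon length from the longest transcript gave the same order of levels for all 10 genes, but not the same sizes. The wild-type level of hpl-2 was then 38.0 rather than 31.2 CPM per kilobase. With 56 to 118 counts, set-32 had the least depth and the widest intervals.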
